A study of Mus musculus with 12 samples.

Results

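Chemokine receptors are G protein-coupled receptors that steer blood cells along gradients of small secreted proteins, the chemokines. In bone marrow they hold cells in place or let them leave, with Cxcr4 the receptor best known for keeping stem and progenitor cells in their niche. The receptors described here were Ccr1, Ccr2, Ccr7, Ccr9, Cxcr2, Cxcr3, Cxcr4 and Cx3cr1. They comprised the 8 genes, with 17 of 45037 probe sets that are not controls, to which the platform annotation gave exactly 1 of these symbols, out of 18193 genes in all. Ccr1, Ccr2, Ccr9 and Cx3cr1 had several probe sets, and the other members had 1 each.

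The study cultured KSL cells, a bone marrow fraction sorted as lineage-negative with c-Kit and Sca-1 on the surface, which contains stem and early progenitor cells. Arrays came in 4 groups of 3: Fancc-/- cells with TNF (tumour necrosis factor alpha, 10 ng/ml), Fancc-/- cells without TNF, wild-type cells with TNF and wild-type cells without it. All mice were 2 to 4 months old, and every culture, controls included, ran for 24 h in medium with 10% fetal bovine serum and the growth factors SCF and IL-11 at 10 ng/ml, IL-6 at 20 ng/ml and Flt3L at 50 ng/ml. The cells measured were therefore what a sorted fraction had become after a day in cytokines. The labels name neither a mouse strain nor separate mice for the replicates, so the p-values reflect only how much these arrays vary. How much of that is technical is not known from the labels.

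Fancc signal was not lower but higher on the Fancc-/- arrays, all of which (8.73 to 9.16) lay above every wild-type array (8.22 to 8.65). The log2 difference averaged over treatment was 0.62 (1.54-fold, SE 0.10, limma unadjusted p = 8.92e-05, adjusted p = 0.137). Where the Fancc probe set lies relative to the disrupted sequence is not known here, so genotype is given as labelled. Of the genes behind the sort, Kit lay above 9.9 on every array, as did the progenitor genes Cd34 and Flt3, and Ly6a, which encodes Sca-1, was not analysed here, while 6 of 8 measured lineage antigens stayed below the median of all gene values (7.44 on the log2 scale) on all 12 arrays. Xist was low (5.06 to 5.47) on 3 of 6 arrays without TNF and high (12.2 to 13.1) on all 6 arrays with TNF, so that it ran in part with treatment, and the Y-linked Eif2s3y was low on 1 array with TNF and 1 without. With both levels as covariates, Ccr1 and Cxcr2 passed for TNF in both genotypes, Ccr2 passed in wild type and Cx3cr1 on the arrays labelled mutant, and the calls that ended are named below. Values below are log2 RMA signal (robust multi-array average, a background-corrected and array-equalised probe set summary), read from the brightest probe set of a gene. The median of all genes, 7.44, was also taken over each gene's brightest probe set. Over all probe sets the median was lower, between 5.96 and 6.05 on each array. A gene passed where limma's adjusted p over all 18193 genes was under 0.05. Probe sets differ in how strongly they bind. Signals of different probe sets are therefore set against each other only roughly, as dim or bright within the range of the arrays.

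TNF changed several of these receptors, and in both directions. The members were chosen with earlier results of these data known, which bears on the shares given here. On the arrays labelled mutant, Ccr1, Ccr2 and Cxcr2 fell and Cx3cr1 and Ccr7 rose, 5 of 8 members against 4.31% of all genes (1.86% lower and 2.45% higher). In wild type Ccr1, Ccr2 and Cxcr2 fell and Cx3cr1 rose, 4 of 8 members against 5.02% of all genes (2.33% lower and 2.69% higher). Averaged over genotype, Ccr1, Ccr2 and Cxcr2 fell and Cx3cr1 and Ccr7 rose, against 12.1% of all genes (6.32% lower and 5.81% higher). The median change of the 8 members in that average was -0.09, beside -0.03 over all genes. Cxcr4, Cxcr3 and Ccr9 did not pass in any of these comparisons.

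**Figure D1:**
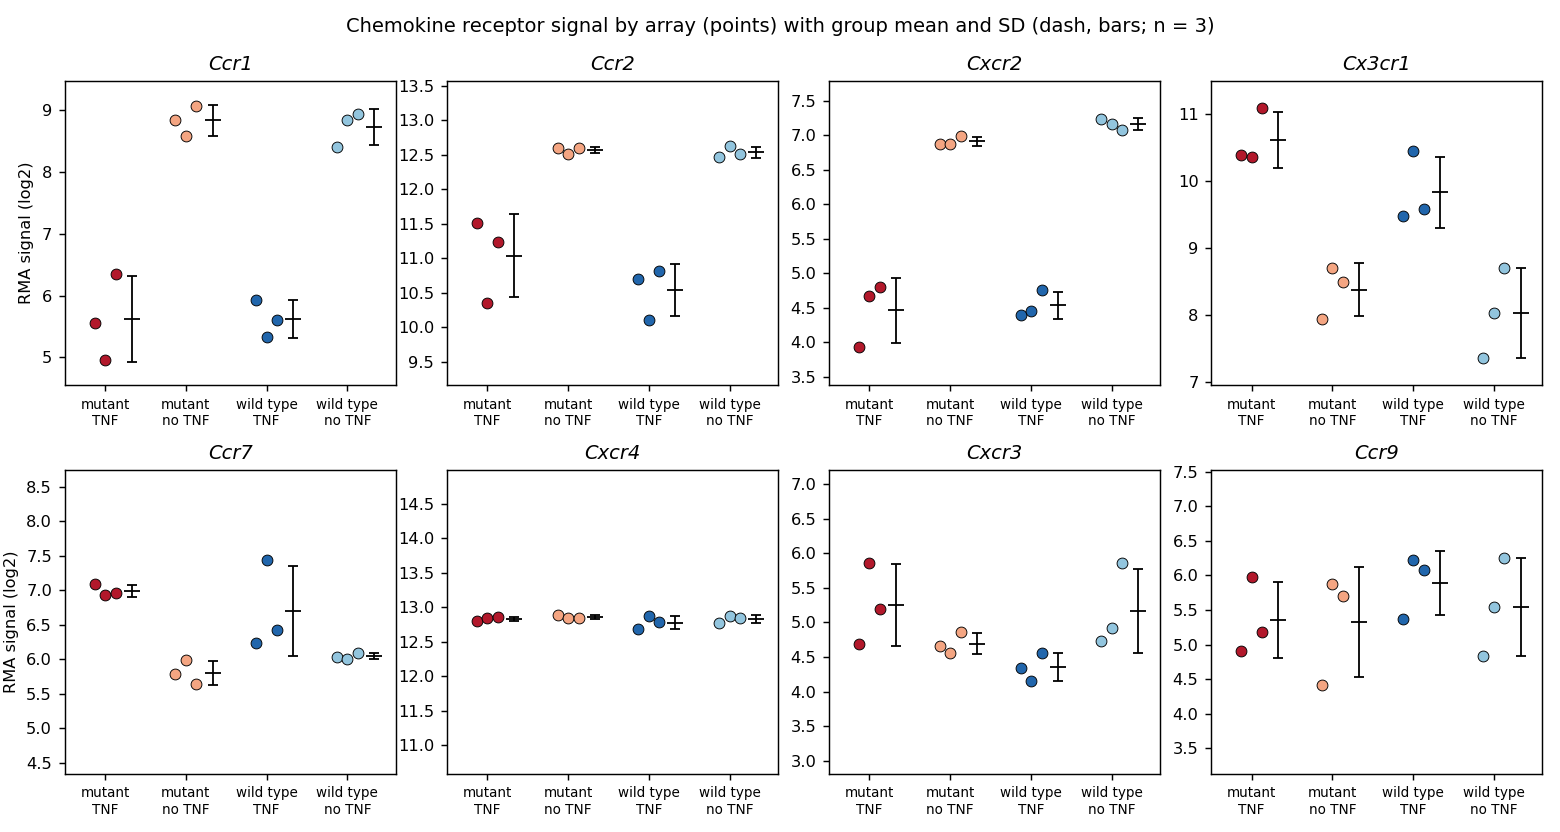
Log2 RMA signal of each receptor on the 12 arrays (points), with the mean and SD of each group of 3. Treated arrays of Ccr1, Ccr2 and Cxcr2 lie below every untreated array and those of Cx3cr1 above, while Cxcr4 stays between 12.69 and 12.89 on all arrays. Each panel has its own vertical range, of at least 4.4 log2 units.

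Ccr1 is a receptor for Ccl3 and Ccl5, and in mouse also for Ccl6 and Ccl9, and is carried mainly by myeloid cells. It read 5.56, 4.95 and 6.35 on the TNF-treated arrays labelled mutant, against 8.85, 8.59 and 9.08 on the untreated ones. In wild type it read 5.93, 5.32 and 5.60 with TNF, against 8.40, 8.85 and 8.94 without. All treated arrays stood at least 2 log2 units below every untreated array of either genotype, and no treated array reached the median of all genes. The fall was -3.22 on the log2 scale on the arrays labelled mutant (9.3-fold, SE 0.31, adjusted p = 0.000212) and -3.11 in wild type (8.64-fold, SE 0.31, adjusted p = 0.000237). The second Ccr1 probe set fell by nearly the same amount, with -3.24 on the arrays labelled mutant and -3.03 in wild type.

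Ccr2 is the receptor for Ccl2 and related chemokines and is needed for monocytes to leave the marrow. Its brightest probe set read 11.51, 10.36 and 11.24 on the treated arrays labelled mutant, against 12.60, 12.51 and 12.59 on the untreated ones. It read 10.70, 10.11 and 10.81 on the treated wild-type arrays, against 12.47, 12.63 and 12.51 on the untreated ones. The untreated arrays lay close together (SD 0.05 for the arrays labelled mutant and 0.08 in wild type), the treated arrays spread more widely (SD 0.60 and 0.38), and no treated array reached an untreated one. The fall was -1.53 on the arrays labelled mutant (2.88-fold, SE 0.26, adjusted p = 0.00738) and -1.997 in wild type (3.99-fold, SE 0.26, adjusted p = 0.00138). With Xist and Eif2s3y as covariates the first of these did not pass (-1.43, adjusted p = 0.0655).

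The size of the Ccr2 fall depended on the probe set. Its 3 dimmer probe sets fell by between -2.70 and -2.88 on the arrays labelled mutant and by between -2.68 and -3.37 in wild type, up to 10.4-fold, and each passed over all probe sets tested. The brightest one lay high in the array's range, with only 7.12% of probe sets brighter on average. The other 3 had between 27.1% and 32.2% of probe sets above them. Averaged over a gene's probe sets, the Ccr2 change was -2.50 on the arrays labelled mutant and -2.79 in wild type.

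Cxcr2 is the receptor through which neutrophils respond to Cxcl1, Cxcl2 and related chemokines, and it favours their release from the marrow. It read 3.93, 4.67 and 4.80 on the treated arrays labelled mutant, against 6.87, 6.87 and 6.99 on the untreated ones. The wild-type arrays read 4.40, 4.45 and 4.76 with TNF, against 7.24, 7.16 and 7.07 without. Treated and untreated arrays were separated by more than 2 log2 units. Even the untreated arrays lay below the median of all genes, though above that of all probe sets. The fall was -2.44 on the arrays labelled mutant (5.44-fold, SE 0.19, adjusted p = 7.36e-05) and -2.62 in wild type (6.15-fold, SE 0.19, adjusted p = 3.81e-05). Cxcr2 could not be tested with a filter on dim genes, because it did not reach the median of all genes on any array.

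Some granulocyte markers fell with TNF as these receptors did, and monocyte markers went both ways. Of 14 measured granulocyte markers, 5 fell on the arrays labelled mutant, against 1.86% of all genes, and 8 in wild type, against 2.33%, and 0 rose. Their summed log2 signal was 121.95 to 139.51 on the treated arrays labelled mutant, against 153.41 to 157.54 on the untreated ones, and 116.35 to 126.45 with TNF against 145.73 to 152.55 without it in wild type. The sums did not overlap. Of 15 monocyte, macrophage and dendritic markers, 4 rose and 2 fell on the arrays labelled mutant and 3 rose and 3 fell in wild type, against 4.31% and 5.02% of all genes called in either direction, and the summed signal overlapped (139.11 to 152.26 with TNF and 138.05 to 144.76 without it on the arrays labelled mutant, 137.22 to 140.30 and 136.24 to 142.15 in wild type). Of 14 lymphoid markers 1 rose in each genotype, the recombinase gene Rag1, a share of 7.14% against 4.31% and 5.02% of all genes. The part of these markers in the receptor changes was not tested, and in bulk RNA fewer cells of a type and less RNA per cell cannot be told apart. The marker lists were chosen with earlier results of these data known.

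Cx3cr1 is the receptor for fractalkine and marks monocyte and dendritic cell precursors and resident macrophages. It read 10.39, 10.35 and 11.09 on the treated arrays labelled mutant, against 7.94, 8.71 and 8.48 on the untreated ones. In wild type it read 9.47, 10.44 and 9.58 with TNF, against 7.36, 8.04 and 8.70 without. Every treated array was above every untreated array of both genotypes. The rise was 2.23 on the arrays labelled mutant (4.70-fold, SE 0.37, adjusted p = 0.00628) and 1.80 in wild type (3.49-fold, SE 0.37, adjusted p = 0.0182). The wild-type call was lost when untreated replicate 2 was left out (adjusted p = 0.0527), when treated replicate 2 was (adjusted p = 0.0622), when only these 2 groups were fitted (adjusted p = 0.0725) and with the Xist and Eif2s3y covariates (1.28, adjusted p = 0.153). The dimmer Cx3cr1 probe set, which stayed below the median of all genes on all arrays, stood 0.67 higher on the arrays labelled mutant and 0.61 higher in wild type without passing over all probe sets, and passed only averaged over genotype (0.64, SE 0.14, adjusted p = 0.0187).

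Ccr7 guides dendritic cells and lymphocytes to lymph nodes along Ccl19 and Ccl21. It read 7.09, 6.93 and 6.96 on the treated arrays labelled mutant, against 5.79, 5.99 and 5.65 on the untreated ones, without overlap. On the wild-type arrays it read 6.23, 7.44 and 6.43 with TNF, against 6.03, 6.01 and 6.09 without, so that the groups did not overlap but replicate 2 stood apart from the other treated arrays. Ccr7 rose by 1.18 on the arrays labelled mutant (2.27-fold, SE 0.25, adjusted p = 0.0212), while the wild-type value was 0.66 (SE 0.25) and did not pass (adjusted p = 0.179). The difference between these TNF effects was 0.52 (95% interval -0.24 to 1.29) and did not pass. Without treated wild-type replicate 2 the wild-type value was 0.29 and the difference 0.90, and neither passed. Of the 6 arrays labelled mutant, leaving out any one but untreated replicate 2 ended the Ccr7 call on those arrays (adjusted p from 0.0575 to 0.0862). The covariates ended it too (adjusted p = 0.12). Averaged over genotype the change was 0.92 (SE 0.17, adjusted p = 0.00573), and 0.88 with the covariates (adjusted p = 0.0753).

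**Figure D2:**
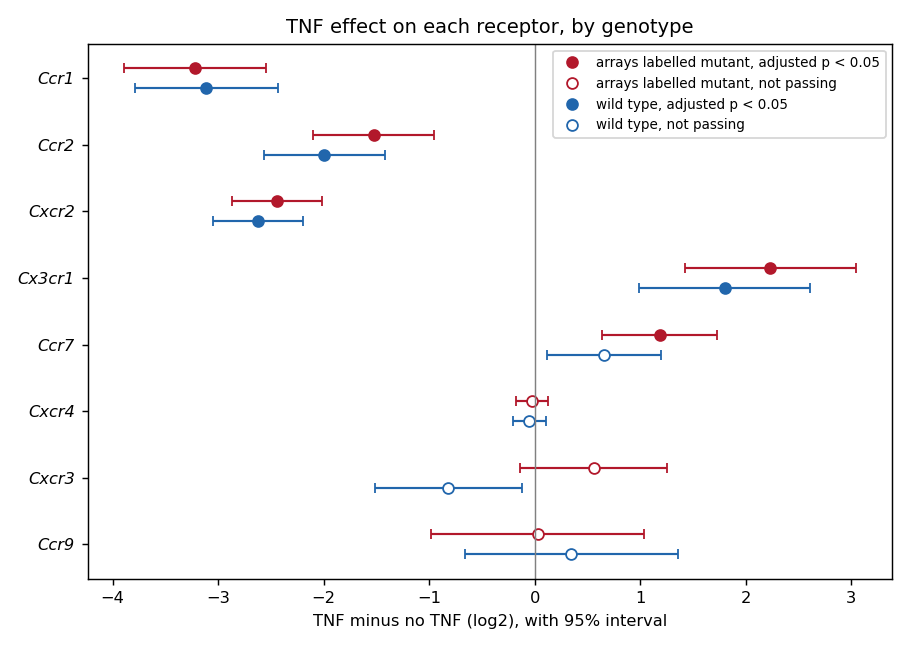
Change of each receptor with TNF (log2, treated minus untreated) with its 95% interval, on the arrays labelled mutant (red, upper) and in wild type (blue, lower); filled points passed at an adjusted p under 0.05. The intervals of Ccr1, Ccr2 and Cxcr2 lie below 0 and those of Cx3cr1 and Ccr7 above it. The wild-type interval of Cxcr3 also lies below 0. In wild type neither Ccr7 nor Cxcr3 passed. The intervals of the genotypes overlap for each receptor, for Cxcr3 only barely (mutant from -0.142, wild type up to -0.121).

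Cxcr4, the receptor for Cxcl12, had a high signal that differed little between groups. It read 12.79, 12.84 and 12.86 on the treated arrays labelled mutant, against 12.89, 12.84 and 12.85 on the untreated ones. In wild type it read 12.69, 12.87 and 12.78 with TNF, against 12.77, 12.87 and 12.85 without. The groups overlapped, and all 12 arrays lay between 12.69 and 12.89. The change was -0.03 on the arrays labelled mutant (95% interval -0.18 to 0.12) and -0.05 in wild type (-0.21 to 0.10), so that the changes of the called receptors lay outside both intervals at this probe set. Only 2.17% of probe sets were brighter, and Ccr2 had its smallest fall at its brightest probe set. Whether a high signal limits the change that can be measured was not tested.

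Cxcr3, an X-linked gene whose product responds to Cxcl9, Cxcl10 and Cxcl11 on activated T and natural killer cells, did not reach the median of all genes on any array. It read 4.69, 5.87 and 5.20 on the treated arrays labelled mutant, against 4.66, 4.56 and 4.86 on the untreated ones. In wild type it read 4.34, 4.16 and 4.56 with TNF, against 4.73, 4.92 and 5.87 without. The wild-type groups did not overlap, and those labelled mutant did. The log2 changes had opposite signs, 0.56 on the arrays labelled mutant (SE 0.32, adjusted p = 0.428) and -0.82 in wild type (SE 0.32, adjusted p = 0.197), and neither passed. The wild-type value was -0.47 without untreated replicate 3, and the other was 0.25 without treated replicate 2 and 0.84 without treated replicate 1. Their difference was 1.38 (SE 0.45, 95% interval 0.39 to 2.37), with an unadjusted p = 0.0109 and limma adjusted p = 1 over all genes. It was 1.03 without untreated wild-type replicate 3, the array on which Cxcr3 read highest in that group.

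Ccr9, the receptor for Ccl25 that directs progenitors to the thymus and lymphocytes to the gut, was dim at all 5 of its probe sets, none of which reached the median of all genes on any array. The brightest read 4.91, 5.98 and 5.17 on the treated arrays labelled mutant, against 4.41, 5.87 and 5.70 on the untreated ones, and 5.37, 6.22 and 6.08 with TNF against 4.84, 5.54 and 6.25 without in wild type. Treated and untreated arrays overlapped in both genotypes. The changes were 0.03 on the arrays labelled mutant (95% interval -0.98 to 1.04) and 0.35 in wild type (-0.66 to 1.36), wide intervals beside those of Cxcr4. The other probe sets changed by between -0.39 and 0.11 and none passed.

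**Figure D3:**
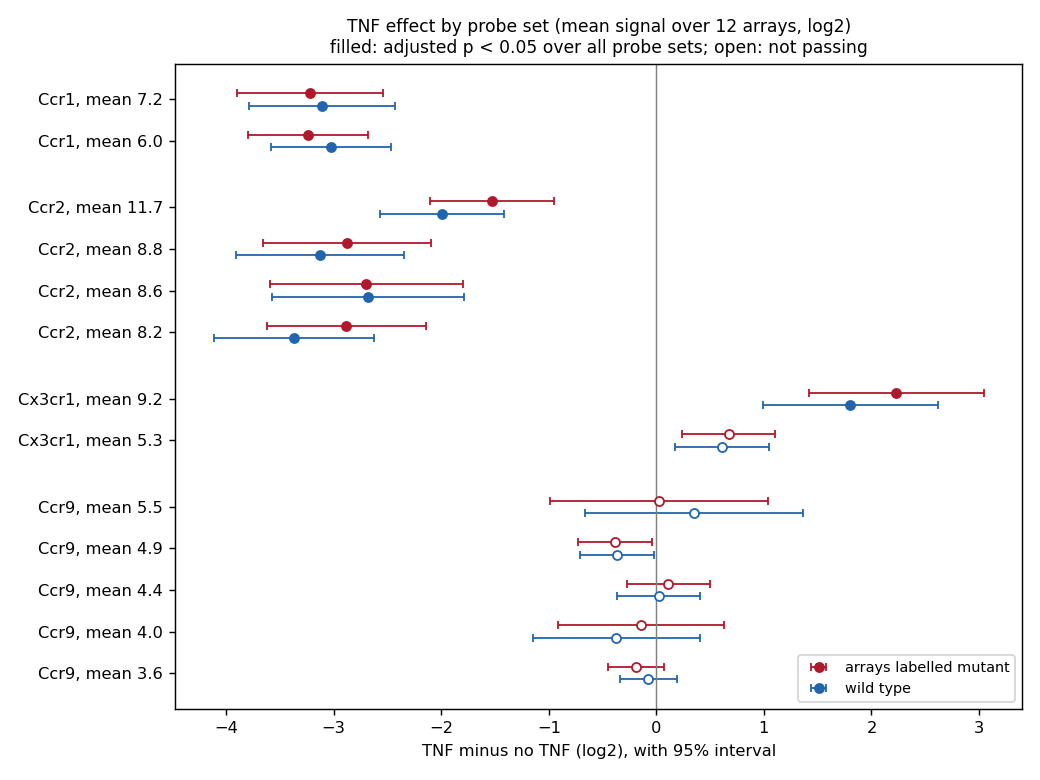
TNF effect (log2, treated minus untreated, with 95% interval) at every probe set of the 4 receptors that have several, each row labelled with its mean signal over 12 arrays; filled points passed over all 45037 probe sets. All Ccr1 and Ccr2 probe sets lie below 0 in both genotypes, and the Ccr2 probe set with the highest signal has the smallest fall.

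Over all 17 member probe sets, 7 fell and 2 rose with TNF on the arrays labelled mutant, against 2.09% of all probe sets called (0.846% lower and 1.25% higher), and 7 fell and 1 rose in wild type, against 2.58% (1.07% lower and 1.5% higher). The calls in either direction came from Ccr1, Ccr2, Cxcr2, Cx3cr1 and Ccr7. Arrays of the groups did not overlap for 5 of 8 members on the arrays labelled mutant, against 26.2% of all genes, and for 6 of 8 in wild type, against 20.6%.

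No receptor passed for genotype. Averaged over treatment 0 of 8 passed in limma and 0 had an unadjusted p under 0.05, against 0.022% of all genes called. Without TNF, 0 of 8 passed and 0 had an unadjusted p under 0.05 in limma, against 0.0055% of all genes called, and the largest difference was that of Cxcr3 (-0.48, mutant minus wild type, SE 0.32). Cxcr2 without TNF read 6.87, 6.87 and 6.99 on the arrays labelled mutant and 7.24, 7.16 and 7.07 on the wild-type arrays, which did not overlap but differed by only -0.25 (adjusted p = 0.992). Ccr7 did not overlap either (-0.23, adjusted p = 0.992), making 2 of 8 members against 8.1% of all genes. With TNF 0 of 8 passed, against 0.0055% of all genes called, and 1 had an unadjusted p under 0.05, Cxcr3 (0.90, SE 0.32, adjusted p = 0.724), the single member of 8 without overlap against 11% of all genes. Cx3cr1 stood 0.78 higher on the treated arrays labelled mutant (SE 0.37, adjusted p = 0.895) and Ccr2 0.50 higher (SE 0.26, adjusted p = 0.923), with overlapping arrays for both. For the difference between the TNF effects 0 of 8 passed in limma, against 0% of all genes, and 1 had an unadjusted p under 0.05, the Cxcr3 value above. The 95% interval of that difference reached from -1.06 to 0.85 for Ccr1, from -0.42 to 0.78 for Cxcr2 and from -0.71 to 1.58 for Cx3cr1.

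The order of the group means was the same for Ccr1 and Ccr2, with TNF-treated wild type lowest (5.62 and 10.54), then the treated arrays labelled mutant (5.62 and 11.04), untreated wild type (8.73 and 12.54) and the untreated arrays labelled mutant (8.84 and 12.57). In each of these orders the lower pair and the upper pair overlapped within themselves and were separated from each other. For Cx3cr1 the order ran from untreated wild type (8.03 ± 0.67) through the untreated arrays labelled mutant (8.38 ± 0.39) and treated wild type (9.83 ± 0.53) to the treated arrays labelled mutant (10.61 ± 0.41, SD, n = 3 each). Again only the step between untreated and treated arrays was free of overlap.

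Promoter windows are shown for the 3 receptors that fell together and for Cx3cr1, which rose, since these 4 carry the calls made in both genotypes. They are the RefSeq windows of GRCm38.p6, from 250 bases before to 50 after the annotated start, printed on the gene's strand, and 7 of 8 members had one. Capitals mark matches on either strand to the NF-kB consensus, to the core motif of PU.1, whose letters are GAGGAA, or to the C/EBP palindrome TTGCGCAA. NF-kB is the factor family that TNF activates, and PU.1 and C/EBP proteins drive myeloid genes.
Ccr1 (chr9:123968643-123968942, minus strand): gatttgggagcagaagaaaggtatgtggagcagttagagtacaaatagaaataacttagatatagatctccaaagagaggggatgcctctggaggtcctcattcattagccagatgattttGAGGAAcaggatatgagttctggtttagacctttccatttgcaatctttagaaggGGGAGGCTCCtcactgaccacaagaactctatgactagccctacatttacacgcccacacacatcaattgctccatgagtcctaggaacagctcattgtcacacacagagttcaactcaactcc
Ccr2 (chr9:124101933-124102232, plus strand): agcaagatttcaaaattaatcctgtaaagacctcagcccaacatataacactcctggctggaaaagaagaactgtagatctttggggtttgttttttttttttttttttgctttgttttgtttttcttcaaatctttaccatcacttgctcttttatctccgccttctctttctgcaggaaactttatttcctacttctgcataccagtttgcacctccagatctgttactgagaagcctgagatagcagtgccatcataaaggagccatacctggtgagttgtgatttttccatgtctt
Cxcr2 (chr1:74153744-74154043, plus strand): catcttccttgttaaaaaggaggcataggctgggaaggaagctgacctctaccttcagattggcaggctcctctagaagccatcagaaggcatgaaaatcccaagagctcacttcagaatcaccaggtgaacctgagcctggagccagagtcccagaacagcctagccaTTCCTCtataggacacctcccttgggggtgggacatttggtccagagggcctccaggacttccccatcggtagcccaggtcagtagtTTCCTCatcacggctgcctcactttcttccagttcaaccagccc
Cx3cr1 (chr9:120068247-120068546, minus strand): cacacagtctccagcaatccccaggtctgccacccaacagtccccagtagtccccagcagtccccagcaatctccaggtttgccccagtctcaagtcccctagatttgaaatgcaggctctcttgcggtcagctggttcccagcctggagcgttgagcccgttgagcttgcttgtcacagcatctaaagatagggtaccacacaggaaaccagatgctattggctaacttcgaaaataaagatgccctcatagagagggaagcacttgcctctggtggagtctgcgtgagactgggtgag
The Ccr1 window held 1 NF-kB match and 1 PU.1 match, and the Cxcr2 window held 2 PU.1 matches; no matches overlapped. The Ccr2 and Cx3cr1 windows held none of these letters, nor did those of Cxcr4 and Ccr9, and Cxcr3 held 1 PU.1 match. Among 32851 windows of the same length, 8.46% held the NF-kB consensus, 28.3% the PU.1 core and 0.183% the C/EBP palindrome.

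In the GRCm38.p6 annotation Ccr9, Cxcr6, Xcr1, Ccr1, Ccr1l1, Ccr3 and Ccr2 follow each other on chromosome 9, with only Fyco1 among them, and Cx3cr1 lies next to Ccr8 elsewhere on that chromosome. The measured receptor genes beside these members were dim. Cxcr6, Xcr1, Ccr1l1, Ccr3 and Ccr8 read between 2.59 and 3.97 on all 12 arrays, and 0 of 5 passed for TNF averaged over genotype (changes from -0.23 to 0.14), against 12.1% of all genes. Signals this low leave little room for a fall.

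Of 15 other measured chemokine receptor genes, 13 stayed below the median of all genes on all 12 arrays. On average over genotype 2 rose and 0 fell, against 12.1% of all genes. Ackr1, an atypical receptor that binds chemokines without classical signalling, read 7.28, 7.39 and 7.38 on the treated arrays labelled mutant, against 5.82, 5.44 and 5.35 on the untreated ones, and 8.15, 7.30 and 7.47 with TNF against 5.03, 5.91 and 5.34 without in wild type. It rose by 2.01 (SE 0.18, adjusted p = 4e-05) and passed in each genotype. Ccrl2, a receptor-like protein that presents the chemoattractant chemerin, rose by 0.83 (SE 0.13, adjusted p = 0.00173), with 1.17 on the arrays labelled mutant and 0.50 in wild type, where it did not pass (adjusted p = 0.165).

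Receptors for other chemoattractants were divided as well. Of 11 measured, 1 rose and 4 fell for TNF averaged over genotype, against 5.81% higher and 6.32% lower of all genes, and their median change was -0.52, beside -0.03 over all genes. The formyl peptide receptor gene Fpr2 rose by 4.46 (SE 0.36, adjusted p = 2.16e-05). The leukotriene B4 receptor gene Ltb4r1 fell by 1.35 (SE 0.18, adjusted p = 0.000684), and the sphingosine 1-phosphate receptor genes S1pr3 and S1pr4 by 1.15 and 0.91 (adjusted p = 0.00348 and 0.0012). Gpr183, an oxysterol receptor gene, fell by 0.80 (SE 0.22, adjusted p = 0.0354).

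Among 21 measured ligands of the 8 receptors, 4 rose and 4 fell for TNF averaged over genotype, against 12.1% of all genes called. By genotype 1 rose and 1 fell on the arrays labelled mutant, against 4.31%, and 3 rose and 3 fell in wild type, against 5.02%. The 4 that fell were all CC chemokines. Ccl3, a ligand of Ccr1, read 9.28, 8.999 and 10.23 on the treated arrays labelled mutant, against 10.46, 10.53 and 10.18 on the untreated ones, and 8.57, 8.44 and 9.03 with TNF against 10.07, 10.23 and 10.06 without in wild type, an average fall of 1.16 (SE 0.19, adjusted p = 0.00248). Ccl6 fell by 2.05 (SE 0.40), Ccl4 by 1.30 (SE 0.17) and Ccl9 by 0.66 (SE 0.15), with adjusted p = 0.00672, 0.00069 and 0.0162. Ccl5, which binds Ccr1, rose instead, by 1.81 (SE 0.28, adjusted p = 0.00182). By genotype Ccl4 and Ccl5 passed in both and Ccl9 in neither. Ccl3 and Ccl6 passed in wild type (adjusted p = 0.0118 and 0.046) and not on the arrays labelled mutant (adjusted p = 0.106 and 0.105). The difference between the TNF effects did not pass for Ccl3 or Ccl6.

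Of the Cxcr3 ligands, Cxcl10 rose by 1.89 (SE 0.27, adjusted p = 0.00114) and Cxcl11 by 0.44 (SE 0.10, adjusted p = 0.0166). Cxcl10 read 8.55, 7.99 and 8.76 on the treated arrays labelled mutant, against 6.87, 6.46 and 8.01 on the untreated ones, and 7.57, 8.24 and 8.43 with TNF against 5.76, 5.95 and 5.18 without in wild type. By genotype Cxcl10 and Cxcl11 passed in wild type (2.45 and 0.72, adjusted p = 0.00445 and 0.0161) and not on the arrays labelled mutant (1.32 and 0.16, adjusted p = 0.0908 and 0.643), and the difference between the TNF effects did not pass for either (-1.13 and -0.56, adjusted p = 1 each). Cxcl2, a ligand of Cxcr2, rose by 1.50 on average (SE 0.34, adjusted p = 0.0167) and passed in neither genotype alone. It read between 2.85 and 3.61 on the untreated arrays, as low as the dim receptor genes above, so that the size of its rise is uncertain.

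**Figure D4:**
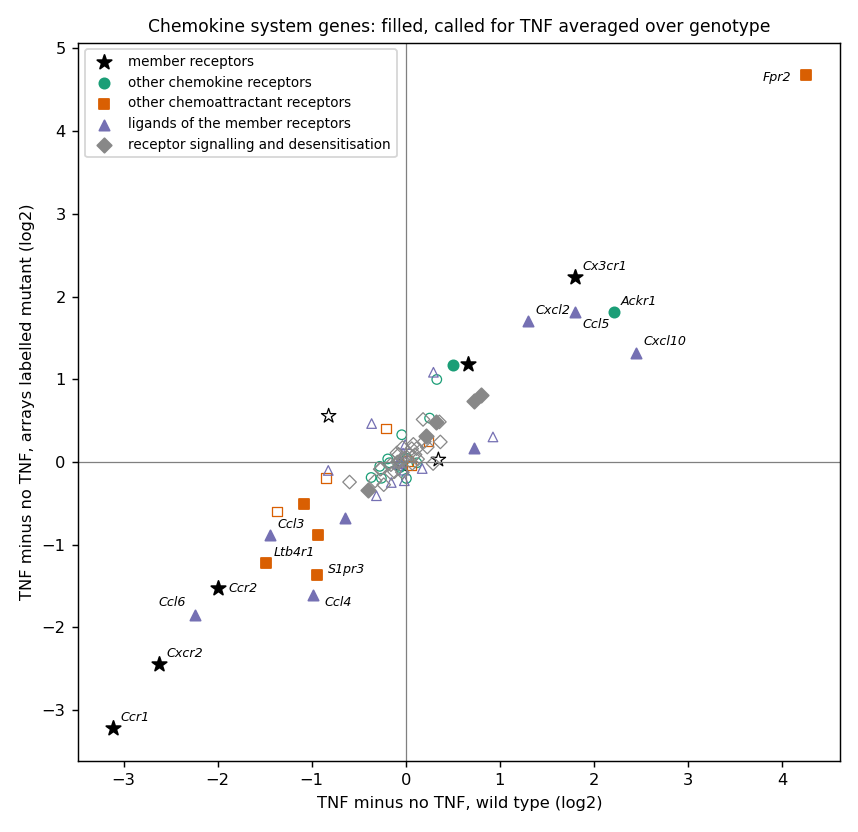
Change with TNF (log2, treated minus untreated) in wild type (horizontal) and on the arrays labelled mutant (vertical) for the receptors, their ligands, other chemoattractant receptors and signalling genes; filled symbols passed for TNF averaged over genotype, and called genes beyond 1.1 log2 units are named. Ccr1, Cxcr2, Ccr2, Ccl6 and Ccl3 lie in the lower left and Cx3cr1, Ackr1, Ccl5, Cxcl2 and Cxcl10 in the upper right.

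Of 34 measured genes that carry or stop the receptor signal, 4 rose and 1 fell for TNF averaged over genotype, a share of 14.7% that lies near the 12.1% of all genes, with a median change of 0.05 beside -0.03 over all genes. Grk3, a kinase that desensitises activated receptors, rose by 0.73 (SE 0.09, adjusted p = 0.000432), and the tyrosine kinase gene Jak2 by 0.80 (SE 0.08, adjusted p = 7.52e-05). Grk3 and Jak2 each passed in both genotypes. Ptk2b and Pik3cg, kinases downstream of chemokine receptors, rose by 0.40 and 0.26, and Rgs10, which speeds the switching off of G proteins, fell by 0.37 (adjusted p = 0.0132, 0.00466 and 0.0187).

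Genes with the most similar pattern were sought for the 5 called receptors, as the smallest root mean square difference over the 12 arrays after each gene was centred on its mean, among 16359 named genes. Nearest to Ccr1 were Spint1 (0.33), Vcan (0.36) and Sirpb1a (0.44), nearest to Ccr2 were Irf8 (0.25), Cox4i2 (0.32) and Tifab (0.32), and nearest to Cxcr2 were Cdh17 (0.37), Adam8 (0.45) and Fcgr4 (0.51), all in log2 units. Cx3cr1 was closest to the class II transactivator gene Ciita (0.39), to Cybb (0.40), a subunit gene of the phagocyte oxidase, and to Sdc4 (0.44). Ccr7 was closest to Slc14a1, Wdr35 and Capg (0.24 each). Irf8, which encodes a transcription factor that monocytes need, averaged 10.18 with TNF and 11.54 without it on the arrays labelled mutant, and 9.56 with TNF and 11.34 without it in wild type, a mean change of -1.57 beside -1.76 for Ccr2. Ciita changed by 1.50 on average, beside 2.02 for Cx3cr1. Any gene that TNF moves by a like amount is near on this measure.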

How the data were processed

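The authors deposited 1 table of RMA values for 12 Affymetrix mouse arrays, per the submitters' processing notes, which name no version; that the deposited values are log2 was read from their range. Between 5 and 15 ng of total RNA was amplified per array, per the labels' protocols. RMA equalises array distributions, so a shift common to all genes cannot be seen.

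The platform annotation gave 1 symbol to 34945 probe sets, several to 932 and none to 9160; 64 control probe sets were left out. Each of 18193 genes was represented by its probe set with the highest mean over all arrays. limma 3.58.1 in R 4.3.3 fitted 1 mean per group (lmFit and eBayes). Tests of the 7 contrasts were 2-sided, and p-values were adjusted by Benjamini and Hochberg's method over all genes, or over all 45037 probe sets. The scripts were tested on simulated data. The number of arrays limits the precision.

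Members and lists were chosen with earlier results of these data known. All members were named, and of each other list up to 4 higher and 4 lower called genes for TNF averaged over genotype, plus 3 nearest patterns per called member. Ligands called in 1 genotype alone were named too, and Rag1 and individual arrays were named after their values were seen.

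Replicate numbers were not used to pair samples in the main fit, because the labels do not say that a number marks a shared source. Same-numbered arrays of different groups deviated together with r over 0.1 in 7 of 18 pairs. Yet 9 of 12 arrays correlated best with their own number, so some pairing by number may exist. Alternatives were a replicate block, a filter on dim genes (at least 3 values above the median, 7.44, which left 9444 genes), the mean of probe sets, all probe sets, 2 scalings, array weights (statmod 1.5.0), moderation with trend and robust settings, only the groups compared, Xist and Eif2s3y as covariates, and leaving out each array.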

Additional observations from a re-analysis of the deposited data

How the results depend on the processing

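Over 7 comparisons of 8 receptors, 1126 of 1180 values under the alternatives kept their direction and their side of the threshold, 12 lost a call, 42 turned their sign and 0 gained a call; none of the 42 belonged to a receptor and comparison that had passed. The replicate block changed no call, with 5 receptors called for mutant arrays, 4 for wild type and 0 for genotype, and same-numbered arrays correlated between -0.16 and 0.28 in their deviations from group means; 9 of 12 arrays correlated best with their own number. The filter on dim genes, which removes Ccr7, Ccr9, Cxcr2 and Cxcr3 from the test, left 3 called receptors on the arrays labelled mutant and 3 averaged over genotype. The Xist and Eif2s3y covariates also left 3 on the arrays labelled mutant (cause not tested).

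Without a call, Ccr9 turned to -0.089 for wild type, -0.12 for the mutant arrays and -0.10 for the average with the mean of its probe sets, and to -0.50, -0.31 and -0.41 with the covariates; on the arrays labelled mutant it was -0.0090 with centred arrays and -0.010 with array weights, and its difference between the TNF effects was 0.19 with the covariates. Ccr1 turned to -0.054 without TNF and 0.13 for the difference between TNF effects with array weights, and with TNF to -0.029 with the mean of probe sets and -0.090 with the covariates. Leaving out each array in turn, Ccr9 ran from -0.0068 to 0.70 in wild type, from -0.43 to 0.30 on the arrays labelled mutant, from -0.042 to 0.36 on average, from -0.57 to 0.24 for genotype without TNF and from -0.78 to 0.035 for the difference. Ccr1 ran from -0.056 to 0.23, from -0.36 to 0.34 and from -0.13 to 0.22 for genotype without TNF, with TNF and on average, and from -0.47 to 0.23 for the difference. The ranges were -0.0035 to 0.073 for Ccr2 (genotype without TNF), -0.24 to 0.20 for Cxcr2 (genotype with TNF), -0.024 to 0.067 for Cxcr4 (difference), -0.29 to 0.042 for Cxcr3 (TNF average) and -0.088 to 0.21 for Ccr7 (genotype average).

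Counts over all genes moved as well. For TNF in wild type 913 genes became 410 with the covariates, 523 with only those groups, 509 without untreated replicate 3 and 474 without treated replicate 3. On the arrays labelled mutant 784 became 452 with the covariates, 444 and 457 without untreated replicates 2 and 3, and 506 and 512 without treated replicates 2 and 3. The average count of 2207 became 1270 with the covariates and 3337 over all probe sets. Genotype counts stayed between 0 and 12, and that of the difference between 0 and 1.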

Other observations

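Among the treated arrays labelled mutant, replicate 3 read highest for several chemokines and chemoattractant receptors, a pattern noticed after the values were seen. Fpr2 read 11.74, 10.36 and 12.34 on those 3 arrays, the complement receptor gene C5ar1 read 8.36, 6.84 and 9.64, and Cxcl2 read 4.34, 3.69 and 6.16. Ccr1 also read highest there (6.35), as did Cx3cr1 (11.09), Cxcr2 (4.80) and Cxcr4 (12.86), whereas Ccr2, Ccr7, Ccr9 and Cxcr3 did not. The pattern was in part shared by the untreated arrays labelled mutant. On those, replicate 3 read highest for Fpr2 (7.75), C5ar1 (9.70), Ccr1 (9.08) and Cxcr2 (6.99), but not for Cxcl2, Cx3cr1 or Cxcr4. Among the treated wild-type arrays, replicate 2 read highest for Ccr7 (7.44), Cx3cr1 (10.44), Ccr9 (6.22) and Cxcr4 (12.87). It read lowest for Ccr1 (5.32), Ccr2 (10.11) and Cxcr3 (4.155), and Cxcr2 lay between.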
